A study of Caenorhabditis elegans with 15 samples.

Results

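The baseline transcriptome of untreated wild-type larvae was described from 5 of the 15 libraries of the series, chosen only by the label "untreated". The study asked how ursolic acid, a plant triterpenoid, changes gene expression in Caenorhabditis elegans, and it sequenced untreated, vehicle-treated (DMSO) and ursolic acid-treated animals in 5 batches. The 10 libraries of the other 2 groups were not used here, and no treatment was compared with another. Each untreated library came from whole animals of the N2 strain, the standard laboratory wild type, a self-fertilizing hermaphrodite that carries no transgene. Animals of one age were obtained by bleaching and hatching without food. They then had 34 h on OP50, the usual Escherichia coli food strain, which took them from larval stage L1 to L3, and 12 h more with no compound, and were collected at L4, the last larval stage. RNA was poly-A selected, made into libraries with a stranded kit and sequenced from one end, and reads that fell in exons were counted per gene. Each of the 5 libraries carries its own batch number, and the study calls its replicates independent. The labels do not say what a batch shared.

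An L4 larva is in the middle of several programmes at once. The epidermis (hypodermis) builds the next cuticle, a coat of collagens that is shed and remade at each moult and takes its adult form at the last one. The germ line of a hermaphrodite makes sperm during this stage and then switches to oocytes, and the intestine begins to make yolk, which oocytes take up. Body-wall muscle, the pharynx (the feeding organ), the intestine and the nervous system are already at work. In RNA of whole animals these tissues are mixed, and fewer cells of a type and less RNA per cell cannot be told apart.

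The 5 untreated libraries held between 20644549 and 27474535 counts assigned to genes, with a median of 22892455 and a sum of 116336088. Counts are given below as CPM, a gene's count scaled to a library total of 1000000, and as TPM, the same after division of each count by the gene's exon length. Levels of different genes are compared in TPM only, since a long transcript gives more fragments than a short one. Values listed for a gene are in the order batch 1, 2, 3, 4 and 5, errors are SDs over the 5 libraries, and CV stands for the SD as a percent of the mean.

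Marker genes of tissues, early embryos and males were set beside the labels. All 24 intestinal markers, all 30 neuronal markers, all 53 germ line markers and 19 of 20 body-wall muscle markers reached a mean of 1 CPM or more, beside 66.5% of all 20541 genes in the table. Of 19 glial markers 13 did (68.4%). Genes of early embryos and of male bodies were mostly low: 7 of 60 early embryo genes and 4 of 18 male genes reached 1 CPM. These lists do not separate L4 from the stages next to it, so they do not test the labelled stage. Their members were chosen with earlier results of these data known. The table held a row for 12 mitochondrially encoded genes as well, which took 0.426% ± 0.0284 of the counts.

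Counts were spread over many genes. The gene with the most counts took 0.919% of them, the first 10 took 4.91%, the first 25 took 9.24% and the first 100 took 22.5%. It took 571 genes, 2.78% of the table, to reach 50% of all counts, and this number ran from 519 in batch 2 to 633 in batch 4 within single libraries. At 1000 CPM or more there were 153 genes with 28.6% of the counts, and the 1763 genes from 100 to 1000 CPM held 43.9%. A further 6922 genes from 10 to 100 CPM held 25.24%, so that the 4815 genes from 1 to 10 CPM held only 2.14% and the 5072 detected genes below 1 CPM only 0.118%. Divided by exon length the distribution was steeper, with 279 genes for 50% of the TPM, as short transcripts came to the top.

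**Figure D1:**
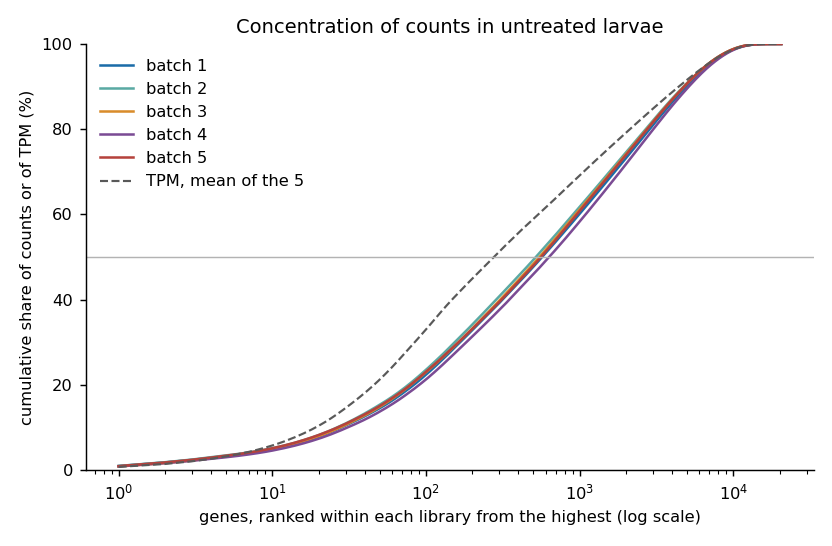
Cumulative share of counts (percent, y axis) against gene rank (log scale, x axis), with one solid line for each untreated library and a dashed line for the mean TPM curve of the 5. The 5 solid lines nearly overlie and cross 50% between 519 genes (batch 2) and 633 genes (batch 4), and the dashed line crosses it further left.

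Most of the 25 genes with the most counts were those of protein synthesis, protein folding, energy supply and muscle. The first was eef-1A.1, translation elongation factor 1-alpha, which brings aminoacyl-tRNAs to the ribosome. It lies on chromosome III from 6970026 to 6971712 on the minus strand of WBcel235, and had 9633, 9756, 8627, 8640 and 9289 CPM (9189 ± 535). It was also first by length-adjusted level, at 7370 ± 441 TPM. The second, unc-54, encodes the major myosin heavy chain of body-wall muscle and had 8322, 8731, 7753, 7645 and 8657 CPM (8221 ± 503). Its transcript is 6204 bases of exon, and per length it came only 111th, at 1634 TPM. The highest library of eef-1A.1 stood 1.13-fold above its lowest, and that of unc-54 1.14-fold.

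Next came eef-2, the elongation factor that moves the ribosome along, with 6040 ± 301 CPM, and rpl-3, a protein of the large ribosomal subunit, with 5120 ± 350 CPM. The fifth was ahcy-1 (3935 ± 440 CPM), S-adenosylhomocysteine hydrolase of the methionine cycle, and the sixth acdh-1 (3401 ± 223 CPM), an acyl-CoA dehydrogenase of the propionate shunt whose reporter is used as a sensor of diet. The 25 also held the ADP/ATP carrier ant-1.1 (3229 ± 202 CPM), the ATP synthase subunits atp-2 (3056 ± 181 CPM) and H28O16.1, named atp-1 in RefSeq (2701 ± 151 CPM), and the poly-A-binding protein pab-1 (2951 ± 119.1 CPM). Chaperones were represented by pdi-2, a protein disulphide isomerase needed for collagen assembly (3208 ± 445 CPM), daf-21, the cytosolic Hsp90 (3105 ± 144 CPM), hsp-1, an Hsp70 (3000 ± 200 CPM), and crt-1, calreticulin (2743 ± 354 CPM). The intestinal aspartic protease asp-1 (2987 ± 290 CPM), the basement membrane collagen let-2 (2791 ± 319 CPM) and the actin act-4 (2692 ± 109 CPM) completed the group with 9 ribosomal protein genes. The most variable of the 25 were pdi-2 and crt-1, with CVs of 13.9% and 12.9%.

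Only 8 of these 25 were also among the 25 highest by TPM. The 10 highest by TPM were eef-1A.1, 5 small-subunit or stalk protein genes of the ribosome (rps-25 at 7057, rps-23 at 6322, rps-8 at 5562, rla-1 at 5033 and rps-24 at 4977 TPM), rpl-7 and rpl-10 of the large subunit, Y37E3.8 and far-2. RefSeq names Y37E3.8 rpl-27A, and at 5852 TPM it belonged with its neighbours, although the deposited symbol kept it out of the ribosomal list. The exception was far-2, a secreted fatty acid- and retinol-binding protein, at 5238 TPM. With 2664, 2643, 2626, 2552 and 2521 CPM it was nearly level across the batches (CV 2.36%).

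The 43 lists of genes grouped by function covered 4933 genes and 45.7% ± 0.817 of all counts. The 81 cytosolic ribosomal protein genes alone took 12.3% ± 0.736, and 25.5% ± 1.33 of the TPM. Genes of actin, myosin and the muscle sarcomere took 4.06% ± 0.120, cuticle collagens 3.93% ± 0.844, chaperones 3.15% ± 0.185, translation factors 3.14% ± 0.138 and the nuclear genes of the respiratory chain and ATP synthase 2.16% ± 0.0856. Lysosomal and gut proteases followed with 1.75% ± 0.0977, fatty acid enzymes with 1.54% ± 0.0886 and the proteasome and ubiquitin genes with 1.18% ± 0.00957. The proteasome list was the steadiest of the 43, with 1.19%, 1.18%, 1.19%, 1.18% and 1.17% in the 5 batches. Collagens, sperm genes and yolk proteins were the lists that differed most between batches for their size.

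**Figure D2:**
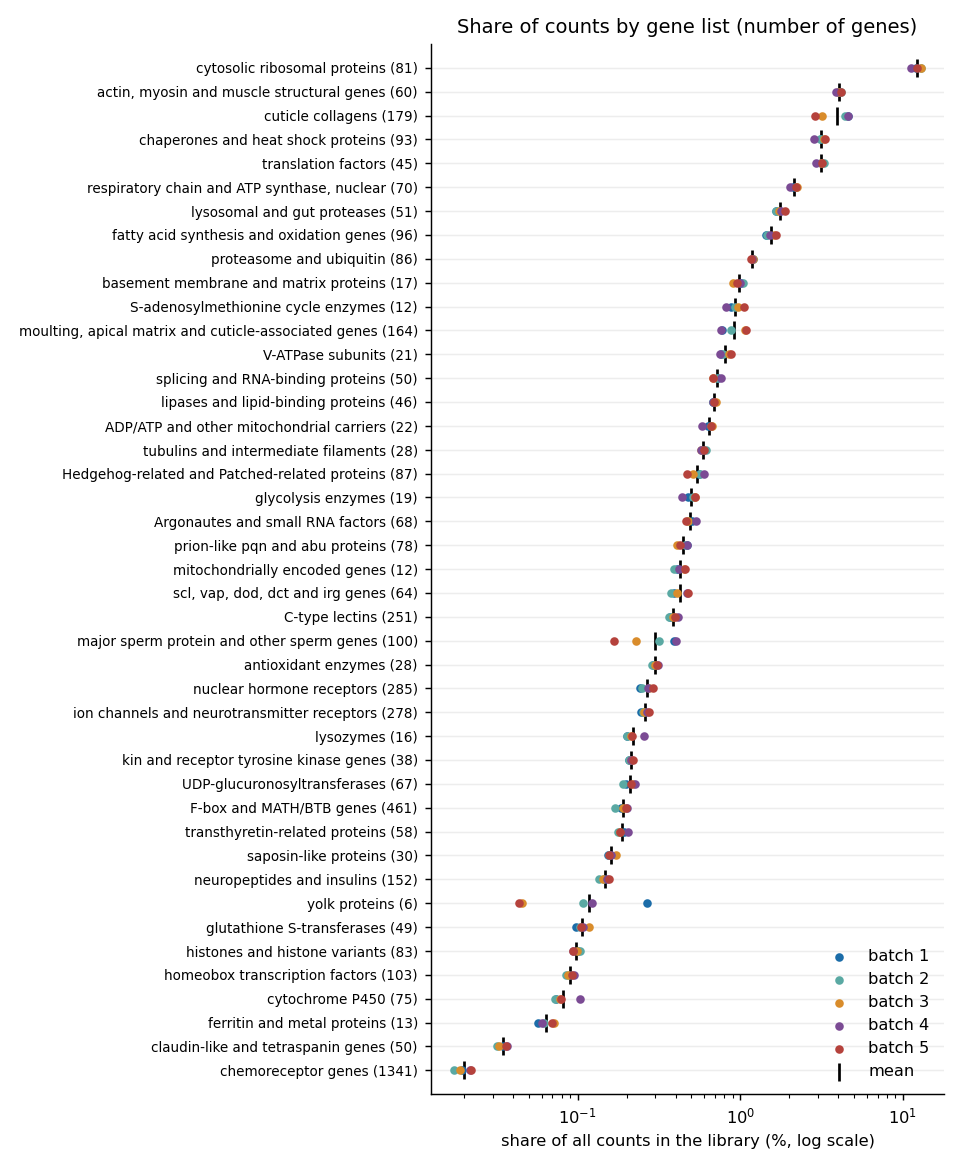
Share of all counts in a library (percent, log scale) for each of the 43 functional lists, with the number of genes in brackets, one dot for each untreated batch and a tick for the mean. Ribosomal proteins lead at 12.3%, and the dots part visibly for cuticle collagens, sperm genes and yolk proteins, while the proteasome dots fall together at 1.18%.

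All 81 ribosomal protein genes reached 1 CPM, and none had a CV of 30% or more. Of all genes at 1 CPM or more, 12.7% (1732 of 13653) reached that CV. They made up 46 of the 100 genes with the most counts and 69 of the 100 with the highest TPM. The share of the list was 11.98%, 12.93%, 12.96%, 11.18% and 12.28%, lowest in batch 4, where 61 of the 81 genes had their lowest value, beside 1903 of the 13653 genes at 1 CPM or more. Members were not level with each other per length, with 4334 TPM for rpl-3 but 30.6 TPM for rpl-37 (6.04, 9.01, 8.27, 5.99 and 4.98 CPM) and 6.22 TPM for rpl-42 (4.51, 4.02, 2.52, 4.21 and 2.97 CPM). How reads shared by near-identical gene copies were counted is not given in the sources used here, so levels within such families are uncertain. The ribosome biogenesis relative rpl-24.2 was the least variable member at 20 CPM or more, with a CV of 2.99%, and rpl-25.2, with 609, 791, 632, 526 and 542 CPM, the most variable at that level, while rpl-37 and rpl-42 below it had CVs of 24.8% and 23.4%.

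Muscle genes had many counts and a spread like that of other genes with many counts. All 60 reached 1 CPM, with a median of 339 CPM. Their median CV was 6.603%, beside 6.96% for all genes at 100 CPM or more. A CV of 30% or more was found in 1 of the 60 (1.67%), beside 12.7% of all genes at 1 CPM or more. After unc-54 and act-4 came unc-15, paramyosin of the thick filament core (2602 ± 171 CPM, 937 TPM), and lev-11, tropomyosin (2037 ± 89.01 CPM, 1054 TPM). The second body-wall myosin, myo-3, had 792, 821, 750, 774 and 795 CPM, at a level of 159 TPM beside 1634 TPM for unc-54. The pharyngeal myosins stood lower, myo-1 with 453, 467, 474, 417 and 614 CPM (92.7 TPM) and myo-2 with 469, 473, 421, 401 and 557 CPM (90.4 TPM). Both were highest in batch 5, as were 11 of the 20 pharyngeal markers at 1 CPM or more, beside 3542 of the 13653 genes at that level. The muscle master regulator hlh-1 (MyoD) had 5.95 ± 0.920 CPM, and hnd-1, a factor of the early mesoderm, was at 0 in all 5 libraries.

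The machinery of the gut was the next clear signature. The 24 intestinal markers took 0.933% ± 0.0667 of the counts. A CV of 30% or more was found in 1 of them (4.17%), beside 12.7% of all genes at 1 CPM or more. Taking the most counts was asp-1, with 2851, 2808, 2778, 3023 and 3477 CPM (3095 TPM). The actin of the microvilli, act-5, had 1406 ± 135 CPM (1365 TPM), and the cathepsin B-like protease cpr-6 had 1126, 1139, 984, 1271 and 779 CPM (1036 TPM). The gene vha-6, for the proton pump subunit of the apical gut membrane, had 607 ± 39.3 CPM, and the peptide transporter pept-1 381 CPM. The transcription factor elt-2, which specifies and maintains the intestine, was seen at 26.5, 32.6, 34.5, 32.3 and 30.9 CPM, and the gut esterase ges-1 at 64.4 ± 4.15 CPM. In TPM the effector act-5 stood above the regulator elt-2, which had 24.8. The single intestinal gene past 30% was lys-7, a lysozyme of the immune response, with 72.7, 64.8, 63.5, 172 and 82.7 CPM.

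**Figure D3:**
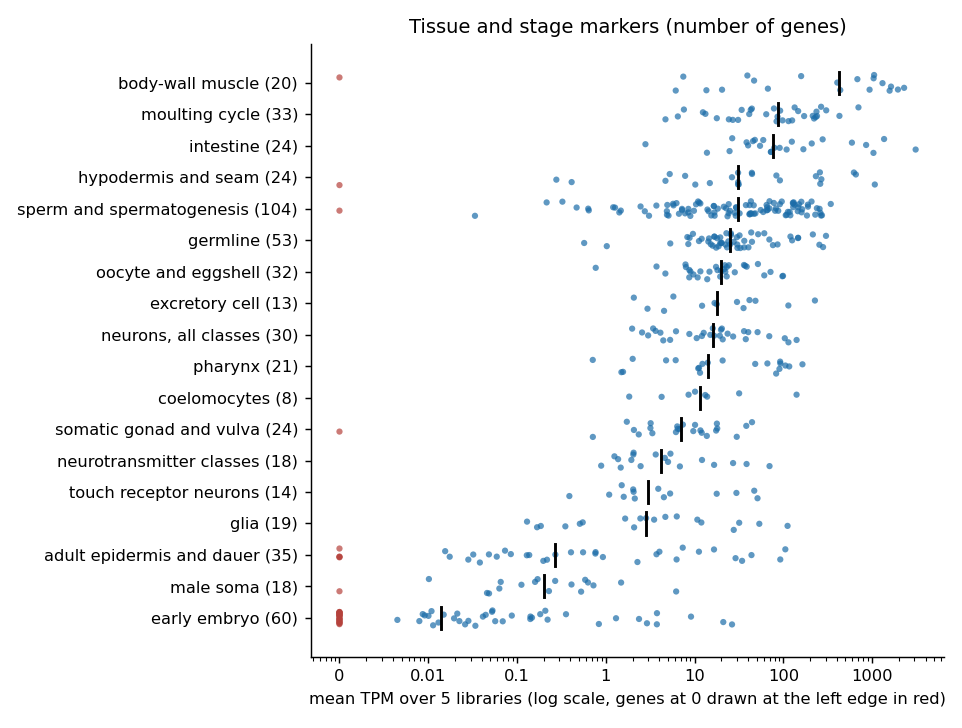
Mean TPM over the 5 untreated libraries (log scale) of each marker gene in 18 tissue and stage lists, one dot for each gene, a bar at the list's median and genes at 0 in red at the left edge. Body-wall muscle has the highest median (422 TPM), and early embryo, male soma and adult or dauer genes have the lowest (0.0140, 0.1997 and 0.270 TPM).

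Neurons were visible although small in counts. The 30 genes used by all neuron classes took 0.1498% ± 0.00861 of the counts. None had a CV of 30% or more, beside 12.7% of all genes at 1 CPM or more. The neuropeptide-processing enzymes egl-3 (a proprotein convertase) and egl-21 (a carboxypeptidase) had 144 ± 11.3 and 143 ± 10.5 CPM, and the synaptic vesicle protein snb-1 (synaptobrevin) 92.4 ± 4.799 CPM. Genes of single transmitter classes had a lower median, 4.14 TPM beside 16.3 TPM for the genes of all classes. Above the latter were unc-25, which makes GABA, with 27.2 TPM and tdc-1 for tyramine with 16.6 TPM. Below it were unc-17 for acetylcholine with 6.84 TPM and eat-4 for glutamate with 3.65 TPM. Lower still were cat-2 for dopamine with 1.47 TPM and tph-1 for serotonin with 0.887 TPM. All 18 of these class markers reached 1 CPM. tbh-1, which turns tyramine into octopamine, had 7.17, 2.37, 1.39, 4.47 and 1.75 CPM and was the only one with a CV of 30% or more (70.1%). Exons of tbh-1 overlap those of a gene on the other strand.

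The touch receptor neurons, whose axons the study observed, are very few cells, and 13 of 14 of their markers reached 1 CPM. The alpha-tubulin mec-12 had 57.9, 64.6, 58.7, 55.4 and 70.8 CPM, the tubulin acetyltransferase mec-17 had 39.9, 38.4, 40.1, 50.5 and 45.3 CPM, and the beta-tubulin mec-7 had 34.9, 40.5, 38.7, 31.05 and 42.7 CPM. The channel subunit mec-4 had 2.11 ± 0.412 CPM. The CVs of the 4 genes ran from 10.1% to 19.6%. The median CV was 11.9% over all genes at 1 CPM or more and 7.89% over those at 20 CPM or more. mec-17 and mec-12 each share exon bases with a gene on the other strand, and whether reads were counted by strand is not given in the sources used here.

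Genes of other somatic tissues were found to different extents. Of 19 glial markers 13 reached 1 CPM (68.4%, beside 66.5% of all genes), among them the glutamate transporter glt-1 (168.2 CPM). All 8 markers of coelomocytes, the scavenger cells, reached it, including rme-8, an endocytic J-domain protein that other cells also use (190 CPM), and unc-122 (6.27 ± 0.443 CPM). The excretory cell list took 0.104% ± 0.00421 of counts with 13 of 13 genes at 1 CPM or more. Of the somatic gonad and vulva genes, 22 of 24 reached 1 CPM. The one with the most counts was the apical junction protein ajm-1 (282 ± 20.3 CPM), which all epithelia use, while the gonadal Notch ligand lag-2 was at 0.863 ± 0.225 CPM.

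Germ line genes were detected without exception. P granule components, which mark germ cell cytoplasm, were high: glh-1, a germline helicase, had 655, 641, 583, 691 and 579 CPM, and pgl-1 had 463, 440, 401, 493 and 376 CPM. The Argonautes csr-1 and wago-1 and the Piwi protein prg-1, which load small RNAs there, had 374 ± 31.1, 364 ± 40.1 and 260 ± 6.08 CPM. The stem cell receptor glp-1 (Notch) had 70.5, 67.6, 66.5, 81.8 and 67.9 CPM, and the meiotic chromosome axis protein htp-3 76.1, 73.7, 79.9, 77.9 and 76.9 CPM, with a CV of 2.98%. gld-1, the translational repressor of meiotic germ cells, varied more, with 306, 256, 229, 328 and 199 CPM. Of the 53 germ line genes 36 had their highest value in batch 4 and 26 their lowest in batch 5, beside 5421 and 3354 of the 13653 genes at 1 CPM or more.

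Sperm genes were detected almost without exception but at levels that depended on the batch. Of 100 sperm genes 99 had a count and 91 reached 1 CPM, and the list took 0.392%, 0.318%, 0.227%, 0.401% and 0.1675% of the counts. The highest and lowest batches thus stood 2.39-fold apart. A CV of 30% or more was found in 68 of the 91 (74.7%, beside the 12.7% of all genes), and 83 had their lowest value in batch 5. Without batch 5 the number was 27, and leaving out any other library left it from 68 to 70. The major sperm protein gene msp-31, one of a family of near-identical genes for the protein that drives sperm crawling, had 140, 111, 78.1, 147 and 57.7 CPM. ssq-2, another sperm-enriched gene, had 193, 153, 84.2, 192 and 67.9 CPM, and spe-11, a sperm-supplied protein needed by the embryo, had 47.4, 38.5, 27.5, 50.0 and 20.6 CPM.

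In each of these 3 genes batches 1 and 4 were high, batch 2 was between, and batches 3 and 5 were low. Not all sperm genes followed. fer-1, the ferlin of sperm organelle fusion, had 59.04, 54.3, 56.0, 58.6 and 50.8 CPM, and spe-44, a transcription factor that acts early in sperm formation, had 31.3, 29.9, 35.6, 29.3 and 29.6 CPM. The Argonautes of the male germ line T22B3.2 (alg-3) and tag-76 (alg-4) had 144, 125.7, 113.8, 142 and 76.8 CPM, and 178, 151, 145, 171 and 105.1 CPM, lowest in batch 5. The sperm fate genes fog-1 and fog-3 ran the other way, fog-1 with 13.2, 13.4, 13.6, 13.4 and 19.4 CPM and fog-3 with 10.3, 12.7, 15.1, 10.6 and 19.002 CPM, both highest in batch 5. Several of these sperm genes were picked after their values were seen.

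Oocyte and eggshell genes were present at modest levels and varied in the same batches. All 32 had a count, and the list took 0.166%, 0.127%, 0.0884%, 0.165% and 0.0883% of the counts. A CV of 30% or more was found in 17 of the 31 at 1 CPM or more (54.8%, beside 12.7% of all genes). The chitin-binding eggshell proteoglycan cpg-2 had 126.5, 89.4, 46.9, 125.8 and 37.7 CPM. perm-4, a component of the permeability barrier of the egg, had 110, 66.1, 23.4, 102.7 and 19.3 CPM, and the yolk receptor of the oocyte, rme-2, 58.5, 40.8, 25.6, 56.5 and 21.7 CPM. In these genes batches 1 and 4 again held the high values and batches 3 and 5 the low ones. The share of all genes with this order was not counted. The oocyte regulators lin-41 and oma-1 spread less, with CVs of 15.7% and 22.2%.

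Yolk proteins made the widest range of any list. The 6 vitellogenin genes, which code for the lipoproteins that the intestine loads into oocytes, took 0.266%, 0.108%, 0.0455%, 0.123% and 0.0437% of the counts, 6.08-fold between batch 1 and batch 5. The member with the most counts, vit-6 on chromosome IV from 8261157 to 8266459, had 1398, 543, 230, 656 and 223 CPM. vit-2 had 983, 392, 148, 466 and 149.001 CPM, and vit-5 had 133, 31.7, 2.52, 25.1 and 4.19 CPM, the widest spread of any gene at 20 CPM or more (CV 136.995%). All 6 were highest in batch 1. The exception in size was vit-1, with 78.3, 70.1, 63.4, 48.5 and 56.4 CPM and a CV of 18.3%. Per length the yolk genes were moderate, with 148 TPM for vit-6 and 107 TPM for vit-2. vit-3, vit-4 and vit-5 are close copies on the X chromosome, so how counts divide among them is uncertain.

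Cuticle collagens were both abundant and variable. Of 179 genes 173 had a count and 135 reached 1 CPM, with 84.4 TPM as the median, and their summed share was 4.63%, 4.41%, 3.17%, 4.59% and 2.87%. A CV of 30% or more was found in 86 of the 135 (63.7%, beside 12.7% of all genes), with a median CV of 35.2%. Leaving out single libraries moved the 86 to between 72 and 92. The collagen with the most counts, col-73, had 2380, 2500, 1675, 2516 and 1261 CPM. col-71 had 1818, 1825, 1166, 1842 and 738 CPM, and col-138 had 1750, 1746, 1066, 1822 and 607 CPM. These 3 were lowest in batch 5 and next lowest in batch 3.

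Another set had far higher ratios between batches at a lower level. col-19, used as a marker of the adult cuticle (chromosome X, 421707 to 422691), had 203, 64.2, 8.71, 108 and 14.6 CPM. col-81 had 321, 100, 10.9, 186 and 23.6 CPM, and col-129 had 444, 147, 18.5, 280 and 33.6 CPM. Of the 15 genes with the largest CV at 20 CPM or more, 14 were collagens and the other was vit-5. In col-19, col-81, col-129, col-20, col-137, col-139 and col-140 batch 1 was highest, followed by batches 4, 2, 5 and 3. These collagens were picked for their spread or after their values were seen, and the share of all genes with this order was not counted.

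Another set had its high values in batches 5 and 3. The 6 furrow collagens dpy-2, dpy-3, dpy-7, dpy-8, dpy-9 and dpy-10, which line the rings of the cuticle and whose loss shortens the body, were all highest in batch 5 and next in batch 3. dpy-10 had 220, 242, 403, 204 and 434 CPM, and dpy-7 had 178, 206, 320, 172 and 336 CPM. Their CVs ran from 32.9% to 36.9%. The 6 were chosen after their values were seen, and the share of all genes with batches 5 and 3 highest was not counted. dpy-10 shares most of its exon bases with another annotated gene on the same strand. sqt-3, a collagen of every stage, lay between the patterns with 1190, 1416, 1284, 1209 and 1095 CPM (CV 9.68%).

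Genes of the moult did not all peak in the same batches. The moulting and apical matrix genes took 0.770%, 0.876%, 1.08%, 0.765% and 1.09% of the counts. A CV of 30% or more was found in 41 of those at 1 CPM or more (34.5%, beside 12.7% of all genes). By number, 47 were highest in batch 5, 33 in batch 4 and 18 in batch 3. Lowest values fell in batch 5 for 26 and in batch 3 for 23. Of all 13653 genes at 1 CPM or more, 3542 were highest in batch 5, 5421 in batch 4 and 2155 in batch 3. Lowest in batch 5 were 3354 of these, and lowest in batch 3 were 2151. Batch 4 was thus most often the highest over all genes, so the 33 are not particular to this list. Several of the members with many counts were high in batches 3 and 5. mlt-11, a large protease inhibitor needed to shed the old cuticle, had 746, 939, 1303, 623 and 1382 CPM. noah-1, a zona pellucida-domain protein of the apical matrix, had 525, 635, 996, 482 and 999 CPM, and the lipocalin lpr-3 had 327, 387, 621, 288 and 668 CPM. The fibrillin-like fbn-1 had 211, 273, 459, 222 and 498 CPM. nhr-23, the nuclear receptor that paces the moult, was at 80.4, 81.4, 107, 76.9 and 107 CPM. In these 5 genes, chosen after their values were seen, batches 3 and 5 lay above the other 3 batches. The share of all genes with this order was not counted.

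Hedgehog-related proteins, a family that expanded in nematodes and is made largely by the epidermis, held members of both patterns. grl-16 had 1089, 931, 331, 1109 and 343 CPM, low in batches 3 and 5, whereas wrt-10 had 163.7, 185, 335, 148.9 and 349 CPM, high in both. qua-1, which moulting requires, was steadier with 465, 513, 648, 516 and 540 CPM. Of the 63 family members at 1 CPM or more, 21 had a CV of 30% or more (33.3%, beside 12.7% of all genes).

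**Figure D4:**
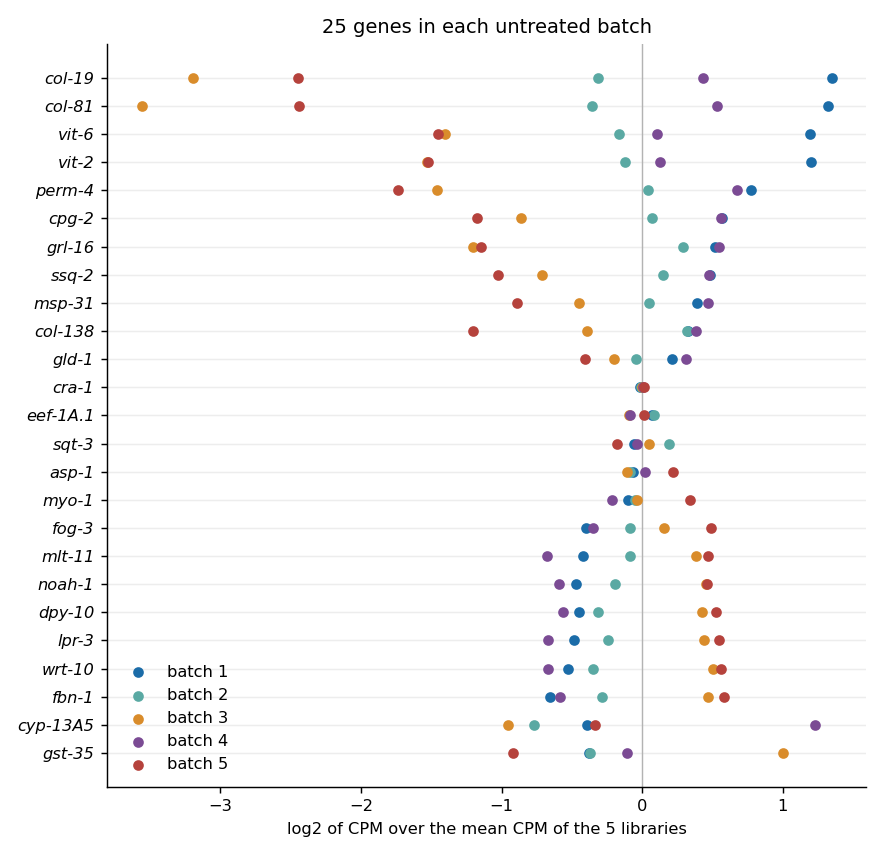
Values of 25 genes in each untreated batch as the log2 of CPM over the gene's mean CPM (x axis, 0 is the mean), one dot for each batch. Batches 3 and 5 lie left of the others from col-19 to gld-1 and right of them from fog-3 to fbn-1, while cra-1 and eef-1A.1 stay near 0 and cyp-13A5 and gst-35 have one batch apart.

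The same axis was seen across all genes. On the log2 CPM of the 13653 genes at 1 CPM or more, the first principal component held 67.8% of the variance between libraries and placed batches 1, 2 and 4 at 0.203, 0.0539 and 0.229 and batches 3 and 5 at -0.202 and -0.283. The second held 14.2%. Between pairs of libraries Pearson's r of log2 CPM across genes ran from 0.972 to 0.994, and the number of genes at least 2-fold apart from 77 (batches 1 and 4) to 1113 (batches 4 and 5). Of the 1732 genes with a CV of 30% or more, 896 were highest in batch 4, 389 in batch 1 and 313 in batch 5. Of all 13653 genes, 5421, 1603 and 3542 were highest in these batches. Among the 1732, 845 were lowest in batch 5 and 405 in batch 3, beside 3354 and 2151 of all 13653. Total counts did not part batches 1, 2 and 4 from batches 3 and 5, with 27474535, 20644549, 22971075, 22353474 and 22892455. The exact stage of the animals at collection was not measured in these files, and its part in the spread was not tested.

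For most genes the batches were close. The median CV over genes at 1 CPM or more was 11.9%, and 5705 genes (41.8%) had a CV under 10%. Counting error alone gives a median of 4.78%, and with that part taken out the median was 9.60%. At 20 CPM or more the median CV fell to 7.89%. The biological coefficient of variation that edgeR fits to all these genes was 17.996%. It was above the median CV of single genes, and without batch 5 it was 15.4%. A CV of 50% or more was found in 253 genes.

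**Figure D5:**
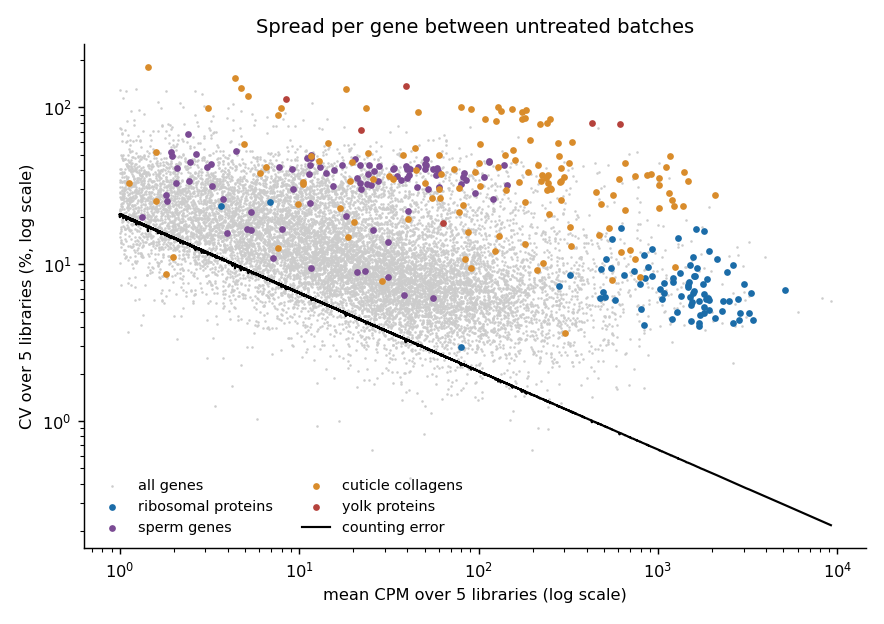
CV over the 5 untreated libraries (percent, log scale) against mean CPM (log scale) for the 13653 genes at 1 CPM or more, with 4 lists in colour and the CV that counting error alone gives as a black line. Collagens and yolk proteins lie at the top with CVs up to 181%, sperm genes form a band near their median of 37.1%, and ribosomal proteins lie at the right with a median of 6.84%.

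The 10 steadiest genes at 20 CPM or more had CVs from 0.434% to 1.24%. They included the RING finger gene rnf-121 (41.2, 41.1, 41.4, 41.6 and 41.2 CPM), cra-1, a subunit of an N-terminal acetyltransferase (197, 198, 199, 199 and 201 CPM), the saposin-like spp-10 (213 ± 1.94 CPM) and the cullin regulator cand-1 (243 ± 3.01 CPM). rnf-121 had a spread below counting error, as 8.38% of the genes at 1 CPM or more did, so the lowest of many CVs says little of one gene. Other steady genes were in protein turnover: the proteasome ATPase rpt-2 had 289, 285, 291, 289 and 281 CPM, and the segregase cdc-48.1 had 592 ± 9.52 CPM.

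A few variable genes of stress and defence followed neither pattern. cyp-13A5, a cytochrome P450, had 27.2, 21.02, 18.5, 83.7 and 28.3 CPM, high in batch 4 alone. ugt-44, a glucuronosyltransferase of the same detoxification route, had 26.3, 13.9, 14.8, 53.9 and 25.2048 CPM. gst-35, a glutathione S-transferase, had 35.7, 35.9, 92.9, 43.1 and 24.6 CPM, high in batch 3 alone. In cyp-13A5 and gst-35 a single library stood far from the other 4. ugt-44 was also highest in batch 4, but its other batches were not level with each other.

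Genes of sphingolipid metabolism, the pathway on which the study centres, were detected. Ceramides are built by serine palmitoyltransferase and ceramide synthases, cut to sphingosine by ceramidases, and sphingosine is then phosphorylated or broken down. The acid ceramidase asah-1 had 35.2, 37.6, 38.1, 42.7 and 36.4 CPM (38.02 ± 2.87, 37.5 TPM). The first enzyme of the pathway, the serine palmitoyltransferase subunit sptl-1, had 229, 222, 284, 228 and 293 CPM (203 TPM), and its partners sptl-2 and sptl-3 had 25.4 and 62.1 TPM. Of the ceramide synthases hyl-2 had 69.6 TPM, hyl-1 52.1 TPM and lagr-1 4.56 TPM. Sphingosine kinase, sphk-1, which makes sphingosine-1-phosphate, had 34.1, 34.5, 37.8, 36.9 and 37.9 CPM (22.1 TPM), and the lyase that removes that product, spl-1, had 154, 154, 182, 175 and 184 CPM (116 TPM). None of these genes had a CV of 30% or more. Only 12.7% of all genes at 1 CPM or more reached that CV, so its absence here is not particular to the pathway. The highest library of asah-1 stood 1.21-fold above its lowest and that of sphk-1 1.11-fold. The regulators ceh-60 and pqm-1 had 14.9 ± 2.92 and 63.5 ± 7.87 CPM. These genes were taken from the study's subject rather than from their values.

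Other large families were read at very different rates. Nuclear hormone receptors, a family much enlarged in nematodes, reached 1 CPM in 185 of 285 (64.9%) and were at 0 in 24 (8.42%), close to the 66.5% and 8.84% of all genes. Those with the most counts were nhr-114, which protects the germ line on poor diets (349 ± 45.1 CPM), nhr-97 and the fat regulator nhr-49 (107 ± 7.25 CPM). Neuropeptide and insulin genes reached 1 CPM in 120 of 152 (78.9%), and those with the most counts were nlp-33, an epidermal antimicrobial-type peptide (147, 113, 83.8, 181 and 93.5 CPM), and nlp-40, the intestinal peptide that times defecation (110 ± 10.1 CPM). Of 251 C-type lectins, sugar-binding proteins of which many serve in immunity, 101 reached 1 CPM (40.2%), and clec-63 alone had 1553 ± 89.02 CPM.

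Histone genes gave the highest absent share of the functional lists apart from the chemoreceptors. Of 83, 28 were at 0 (33.7%) and 32 reached 1 CPM. Among those with the most counts were variants made outside DNA replication, the H2A variant htz-1 (114.5 ± 9.72 CPM) and the H3.3 gene his-72 (109 ± 9.24 CPM), and the linker histone hil-5 (107 ± 5.65 CPM). The transcripts of core histones made for DNA replication mostly lack a poly-A tail in animals, and these libraries were poly-A selected. Whether this bears on the histone genes at 0 was not tested. How reads shared by near-identical gene copies were counted is not given either, so a 0 in such a histone gene is uncertain.

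Of the 20541 genes 1816 (8.84%) had no count in any of the 5 libraries. A sum of 0 allows a mean of up to 0.0258 CPM, the level of 3 counts over the 5 libraries together, or 0.145 CPM in the smallest library alone. These limits cover counting error only, and a gene at 0 in whole animals may still be read in a few cells. A further 1029 genes had only 1 or 2 counts in all. Chemoreceptor genes made up 509 of the 1816: of 1341 receptors of smell and taste, each read in few neurons, 37.96% were at 0 and 21 (1.57%) reached 1 CPM. The whole family took 0.0199% ± 0.00202 of the counts. The member with the most counts was srr-4, with 54.1, 49.2, 50.98, 63.5 and 61.9 CPM, and srw-85 followed with 16.3 ± 3.38 CPM. Subfamilies differed, with 65.3% of srbc genes and 52.2% of srw genes at 0 but 16.7% of sri genes.

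F-box and MATH/BTB genes, adaptors that choose proteins for destruction, were the other large absent group, with 117 of 461 at 0 (25.4%). Within them 64 of 109 fbxb genes were at 0, whereas 21 of 190 fbxa genes were. The single member math-33, a ubiquitin protease relative, had 296 ± 8.75 CPM. By chromosome, V held the most absent genes, 821 of 5172 (15.9%), and III the smallest share of the nuclear chromosomes, 107 of 2698 (3.97%). Chromosome V carried 25.18% of the genes and 15.4% ± 0.272 of the counts, chromosome I 14.2% of the genes and 20.97% ± 0.141 of the counts. The X chromosome had 13.8% of the genes and 11.1% ± 0.317 of the counts.

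Among stage and tissue markers those at 0 in all 5 libraries were mostly embryonic. Of 60 early embryo genes 22 were at 0, among them med-1, which starts the mesendoderm, tbx-35, which follows it in the MS lineage, the early zygotic gene pes-10, and hlh-25, hlh-28 and hlh-29. The endoderm factors end-1 and end-3 had means of 0.0322 and 0.154 CPM. The hatching protease hch-1 and the gonad precursor gene ehn-3 were at 0 as well. The early embryo genes with the most counts were sdz-24 (19.9 ± 3.08 CPM) and sdz-27. Of the 18 male markers, 4 reached 1 CPM (22.2%, beside 66.5% of all genes). Of the list srj-54 was at 0, the male neuron channels pkd-2 and lov-1 were at 0.209 and 0.0828 CPM, and mab-3, the one with the most counts, a factor that shapes male neurons and gut, had 6.99, 7.99, 13.7, 7.20 and 11.3 CPM.

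Of adult and dauer genes 12 of 35 reached 1 CPM and 4 were at 0 (col-183, scl-19, scl-20 and scl-27). The dauer is an arrested larva that resists stress. lea-1, which protects desiccating larvae, had 362 CPM, the most of this list, and col-19 was second. The share of the list was 0.0683%, 0.0491%, 0.0419%, 0.0625% and 0.0445%.

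Genes without a name beyond that of their sequence were 53.6% of the table and took 26.6% of the counts, and 8.54% of them were at 0. Those with the most counts were Y37E3.8 (2283 ± 96.8 CPM), F46H5.3 (2266 ± 169 CPM) and E01G4.6. The last had 2001, 2437, 2040, 1925 and 1207 CPM, lowest in batch 5, with a CV of 23.2%.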

How the data were processed

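Reads from one end of each fragment were aligned by the authors to WBcel235 with STAR (2.5.2b per the labels), duplicates were marked, and exonic reads were assigned to genes with featureCounts 1.5.2. The deposited values are raw counts for 20541 genes in 15 libraries, of which the 5 untreated ones were used and the 10 columns of other groups were not. The strand setting and the treatment of reads that match several genes are not given in the sources used here, and exons of 28.4% of annotated genes overlap another gene.

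CPM were computed on the total count of each library and TPM on merged exon lengths of Ensembl release 115 (WBcel235, 20194 of 20541 genes). No test was made, since one group was described. Per gene the mean, SD and CV over 5 libraries were computed in Python 3.11.15 with pandas 2.3.3. The counting part of the variance was that of Poisson counts, and the biological coefficient of variation came from edgeR 4.0.16 (R 4.3.3) with TMM factors and no covariate, after a test on simulated data. Principal components used log2 (CPM + 0.5). The 5 libraries differed from each other by more than sampling noise, so each counted as 1 replicate. Intervals and limits cover counting error only, and depth was 20644549 to 27474535 counts.

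The 43 functional and 18 tissue lists were defined by gene symbol, each gene in the first functional list that it matched. Members and lists were chosen with earlier results of these data known. A list of ribosomal RNA genes without members was dropped, and the chemoreceptor and sperm patterns were narrowed after the files were read. Many markers are also used by other tissues. Named genes were the first 25 by CPM and 10 by TPM, the first 3 of each list, markers at 0, the 15 most and 10 least variable and the extremes of each list at 20 CPM or more, and the first 3 without a name. Others were chosen after their values were seen, or from the study's subject. Alternatives changed the scaling, depth, filters and libraries.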

Additional observations from a re-analysis of the deposited data

Results flagged for a closer look

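In 290 groups of 5 values looked at (the total count, the list shares and single genes), 18 had one library farther from the other 4 than Dixon's limit of 0.71 of the range. Chance flags about 1 in 20 groups that are separate and chosen without sight of their values, which would be 14.5 of 290. Some genes here were chosen for their spread or after their values were seen, and lists share members with them. The 14.5 is therefore no benchmark for the 18. Batch 4 stood high for the lysozyme share (0.256%, others 0.201% to 0.216%), the cytochrome P450 share (0.104%, 0.0726% to 0.0796%), cyp-13A5 (83.7 CPM, 18.5 to 28.3), cyp-35A2 (152 CPM, 97.8 to 112), lys-7 (172 CPM, 63.5 to 82.7), cgt-3, a glucosylceramide synthase (127 CPM, 95.2 to 101), rme-8 (219 CPM, 177 to 189) and glp-1 (81.8 CPM, 66.5 to 70.5). Batch 5 stood high for the pharynx share (0.192%, 0.149% to 0.161%), myo-1 (614 CPM, 417 to 474), egl-3 (164.5 CPM, 138.1 to 141), nlp-24 (123.1 CPM, 90.9 to 97.03), fog-1 (19.4 CPM, 13.2 to 13.6) and cam-1, a receptor tyrosine kinase (55.7 CPM, 54.2 to 54.5). Batch 3 stood high for rps-25 (2523 CPM, 2179 to 2275) and gst-35 (92.9 CPM, 24.6 to 43.1). Batch 1 stood high for vit-5 (133 CPM, 2.52 to 31.7) and low for nhr-114 (271 CPM, 353 to 387).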

How the results depend on the processing

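No paired analysis was possible because one group was described and no test was made. Counting genes with fewer than 3 counts in sum as absent gave 2845 in place of 1816, and TPM in place of CPM gave 279 genes for 50% of the total in place of 571, with 8 of the 25 leading genes kept. In TPM the shares were 25.5% for ribosomal proteins, 2.29% for translation factors, 0.686% for sperm genes, 2.56% for muscle genes, 2.77% for the respiratory chain, 2.48% for chaperones and 0.0288% for yolk proteins (0.117% of counts). The median CV was 17.6% over every gene with a count, 8.86% over genes at 10 CPM or more and 9.60% with the counting part removed. Leaving out one library gave 1927 to 2035 absent genes, 13610 to 13692 genes at 1 CPM or more, 555 to 584 genes for 50% of the counts, 23 to 25 of the leading genes, a median CV of 10.7% to 12.2% and a biological coefficient of variation of 15.4% to 20.1%. Genes with a CV of 30% or more then numbered 1169 to 2104, of which collagens 72 to 92, sperm genes 27 to 70 and oocyte and eggshell genes 15 to 19. These 4 counts were added to the alternatives after the data were seen. TMM library sizes and thinning to the smallest library moved the counts of genes at 1 CPM or more and of genes with a CV of 30% or more by less than 1.5 times, as thinning did for absent genes, and were not run for the number of genes that hold 50% of the counts or for the 25 leading genes. Depth limits statements on absent genes to the levels given, and 5 libraries limit each CV.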
